A study of Mus musculus with 9 samples.

Results

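Fibronectin (*Fn1*), thrombospondin-1 (*Thbs1*), transforming growth factor beta induced protein (*Tgfbi*), elastin microfibril interfacer 2 (*Emilin2*), extracellular matrix protein 1 (*Ecm1*) and transglutaminase 2 (*Tgm2*) are a set of 5 secreted matrix proteins and 1 crosslinking enzyme. The 6 genes were taken by name and found by Ensembl identifier among the 53801 genes of the count files. RNA of sorted monocytes/macrophages was counted in 9 libraries from male C57BL/6J mice, 9 weeks old, with 3 libraries in each of 3 groups. Stroke brain and stroke blood came from mice in which a distal branch of the left middle cerebral artery and, with it, the left common carotid artery were permanently closed (dMCAO), taken 5 days after surgery, and sham blood came from sham-operated mice on a day not given in the sources used here. Each brain library pooled the ipsilesional hemispheres of 5 mice, and each blood library came from 1 mouse. All cells were gated as CD11c-Ly6G-CD11b+CD45high, a gate that can also take in resident microglia that raise CD45. No sham brain cells were analysed here, so the brain could be compared with blood only.

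The extracellular matrix is the protein mesh between cells, and monocytes and macrophages both add to it and hold on to it through integrins and other receptors. Fibronectin is a large dimer that cells assemble into fibrils, thrombospondin-1 is a matricellular protein that binds CD36 and CD47 and can activate latent TGF-beta, and the product of *Tgfbi* binds integrins and collagens. EMILIN2 belongs to a family of glycoproteins found with elastic fibers, ECM1 is a secreted glycoprotein of skin and other tissues, and transglutaminase 2 joins glutamine to lysine side chains of proteins such as fibronectin.

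Integrins bind several matrix proteins at the residues arginine, glycine and aspartate (RGD), and this run of residues was looked for in the longest coding frame of each gene in GENCODE M21. Of the 6 genes, 3 encode it: *Fn1* at 2 places, *Thbs1* at 1 and *Tgfbi* at 1. The coding frames of *Tgm2*, *Emilin2* and *Ecm1* hold none. Among all 21584 protein-coding genes 7.25% hold at least 1 such run, and among the 6579 whose frame is between 559 and 2477 residues long, the range of the 6 genes, the share was 13.5%. The 4 stretches are shown because they are the only sequence feature compared here between members, with the 3 codons (CGN, AGA or AGG, then GGN, then GAC or GAT) in capitals, 5′ to 3′ on the coding strand.
Fn1, from codon 1614 of 2477, exon 30 of 46: gtcactggcCGTGGGGACagtccagca
Fn1, from codon 2181 of 2477, exon 40 of 46: catgttcccAGGGGAGACgtagactac
Thbs1, from codon 927 of 1171, exon 18 of 22: ggtgatggcCGAGGTGACgcctgcaaa
Tgfbi, from codon 642 of 683, exon 15 of 17: ccacaagaaCGAGGAGATgagctggca
In GRCm38 the capitals lie at chr1:71606746-71606754 and chr1:71597443-71597451 on the minus strand (*Fn1*), at chr2:118122882-118122890 on the plus strand (*Thbs1*) and at chr13:56637155-56637163 on the plus strand (*Tgfbi*), all within coding exons. A run of these letters is a description of the frame and not evidence that an integrin binds there.

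Total counts per library were between 18475118 and 22623578, and the counts of replicates differed by more than sampling noise in every group. Levels are counts per 1000000 counts of the TMM-scaled library (CPM). At these depths 3 counts, taken as the floor of detection, were worth between 0.133 and 0.162 CPM before scaling, and all 6 genes lay far above it in all 9 libraries. A gene was called when its absolute log2 fold change was above 1 with a Benjamini-Hochberg adjusted p below 0.05 in edgeR's quasi-likelihood test over all genes tested. All 6 genes passed the filter on low counts in the 3 comparisons. Monocyte and macrophage markers, *Lyz2*, *Csf1r* and *Ccr2* among them, were detected in all libraries, and 2 of 9 such markers were called lower in the brain than in stroke blood. Brain replicate 1 stood apart from the other brain libraries (distances of 71.6 and 73.1 on log2 levels, against 47.7 between replicates 2 and 3) and sham replicate 1 from the other sham libraries (67.7 and 73.2, against 47.4), so results are also given without them. In a design of 3 against 3 libraries the smallest two-sided p of an exact permutation test is 0.1.

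Between stroke blood and stroke brain, *Thbs1* rose 34.8-fold and *Tgm2* 33.4-fold, *Fn1* fell 3.01-fold, and *Tgfbi*, *Emilin2* and *Ecm1* were not called. So 2 of the 6 genes were called higher in the brain, against 13.1% of the 13189 genes tested, and 1 was called lower, against 7.86%. The median log2 fold change was 0.60 over the 6 genes and 0.06 over all genes tested. In bulk RNA, fewer cells of a type and less RNA per cell cannot be told apart.

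*Thbs1* (ENSMUSG00000040152) lies on chromosome 2 of GRCm38, from 118111876 to 118127133. It stood at 53.8, 76.5 and 51.8 CPM in the stroke blood libraries and at 2990.0, 1820.1 and 1398 CPM in the brain libraries. The lowest brain library was thus far above the highest stroke blood library, though the brain libraries themselves were uneven, with replicate 1 highest. The means were 60.7 ± 13.7 CPM in stroke blood and 2069 ± 825 CPM in the brain (SD, n = 3), a log2 fold change of 5.12 (SE, the standard error, 0.34; edgeR adjusted p = 2.24e-05). With any library left out it stayed between 4.75 and 5.35 and was called in 6 of 6 fits. The gene shares 3.43% of its exon bases with a noncoding gene on the opposite strand, which had 1 count in all libraries together.

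*Tgm2* (ENSMUSG00000037820), the enzyme of the set, lies on the same chromosome from 158116402 to 158146436. Its levels were 19.1, 22.9 and 20.2 CPM in stroke blood and 671, 792 and 578 CPM in the brain. The groups did not overlap, and the spread within each was small beside the gap. The mean was 20.7 ± 1.97 CPM and 680.3 ± 107 CPM (SD, n = 3), a log2 fold change of 5.06 (SE 0.20, edgeR adjusted p = 9.55e-07), between 4.95 and 5.18 with any library left out. The exons of *Tgm2* overlap those of *Rprd1b* on the opposite strand over 8.03% of their length. The strand setting of the counting is not given in the sources used here, so reads from that stretch cannot be assigned to either gene with certainty. *Rprd1b* had 6149 counts in all libraries together. *Tgm2* had 345 to 479 counts in a stroke blood library and 13287 to 19029 in a brain library.

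*Fn1* (ENSMUSG00000026193, chromosome 1 from 71585520 to 71653200) went the other way. Stroke blood held 2188, 3106 and 2378 CPM and the brain 1239, 588 and 667 CPM. Every brain library was below every blood library, and brain replicate 1 was the highest of the 3. The mean fell from 2558 ± 485 CPM to 831 ± 355 CPM (SD, n = 3), a log2 fold change of -1.59 (SE 0.29, edgeR adjusted p = 0.00358), and without brain replicate 1 it was -2.01. *Fn1* was called in 6 of 6 fits with 1 library left out. Its exons share 2.50% of their bases with an antisense gene that had 107 counts in all libraries together.

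**Figure D1:**
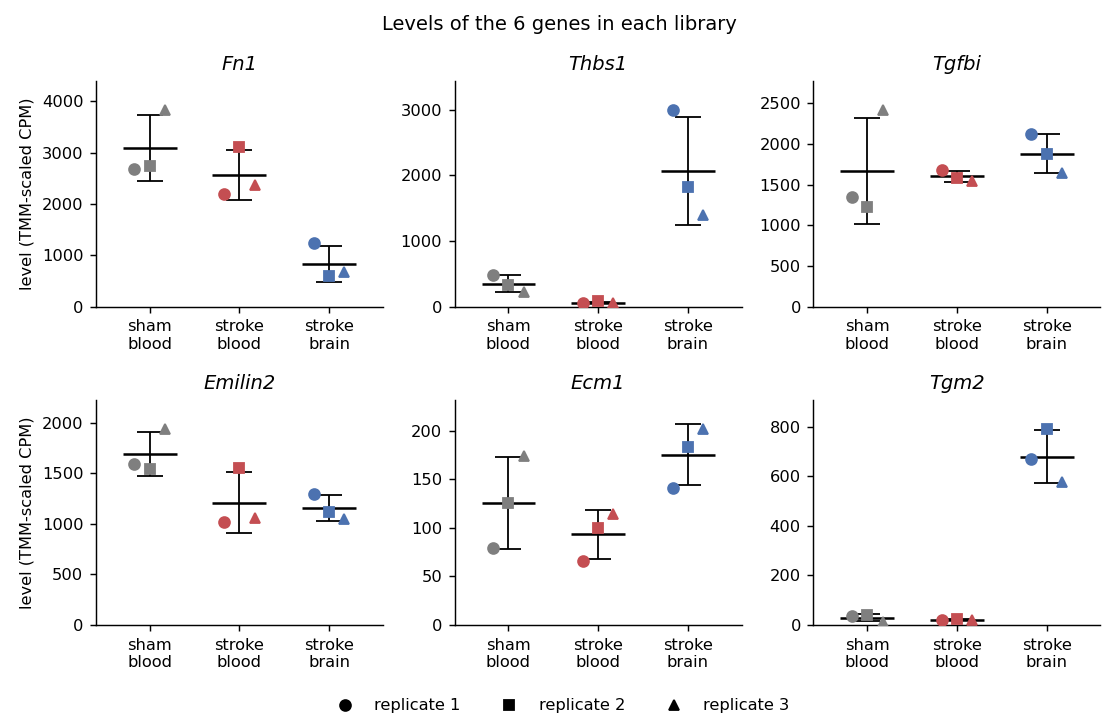
Level of each of the 6 genes (TMM-scaled CPM, linear axis from 0) in the 3 libraries of each group, with the replicate number as the marker shape; the horizontal line is the mean and the bar 1 SD (n = 3). *Thbs1* and *Tgm2* were highest in every brain library, *Fn1* was lowest there, and the brain libraries of *Tgfbi* (1643 to 2123 CPM) lay within the range of sham blood (1231 to 2414 CPM).

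The other 3 matrix genes were not called, though *Ecm1* rose 1.91-fold. *Ecm1* (ENSMUSG00000028108, chromosome 3 from 95734147 to 95739569) stood at 65.5, 99.9 and 114 CPM in stroke blood and at 141, 183 and 202 CPM in the brain. Its groups did not overlap, but neither did those of 47.9% of all genes tested. The log2 fold change of 0.93 (SE 0.23, edgeR adjusted p = 0.0130) was under the fold threshold. *Ecm1* crossed that threshold without stroke blood replicate 3 (1.08), without brain replicate 1 (1.07) and with library size as the only scaling (1.09).

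*Tgfbi* (ENSMUSG00000035493, chromosome 13 from 56609523 to 56639562) stood at 1677, 1586 and 1545 CPM in stroke blood and at 2123, 1883 and 1643 CPM in the brain, with overlapping groups. Its log2 fold change was 0.26 (SE 0.16, edgeR adjusted p = 0.234). *Emilin2* (ENSMUSG00000024053, chromosome 17 from 71252176 to 71310965) stood at 1014, 1553 and 1058 CPM in stroke blood and at 1297, 1118 and 1049 CPM in the brain. The log2 fold change of *Emilin2* was -0.04 (SE 0.20, edgeR adjusted p = 0.90), and its sign depended on the scaling and on single libraries, between -0.18 and 0.14 with 1 left out.

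**Figure D2:**
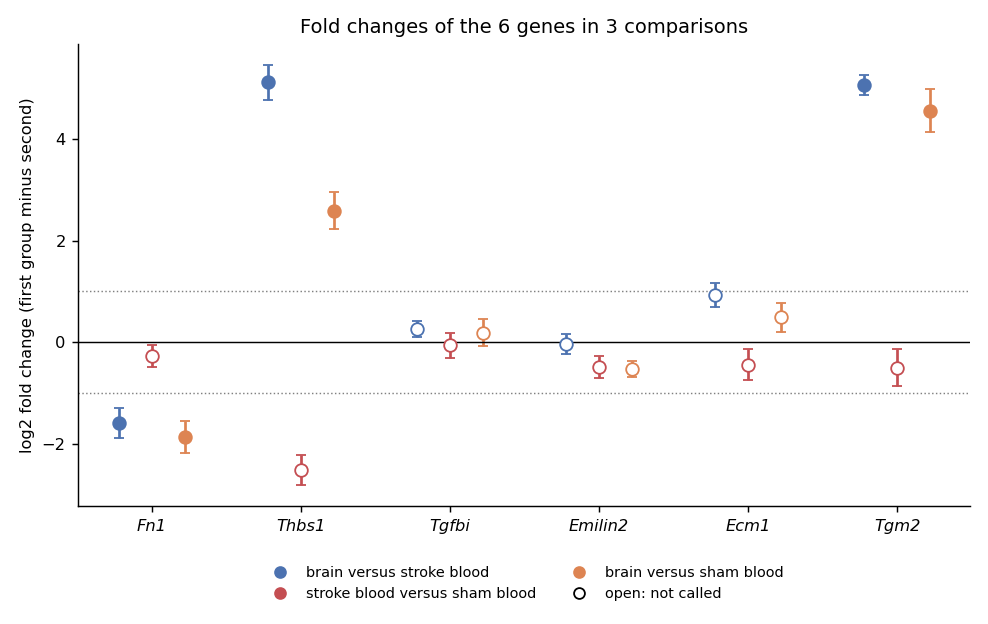
Log2 fold change of each gene (points) with its SE (bars) in the 3 comparisons, filled where the gene was called; dotted lines mark the fold threshold at -1 and 1. The brain comparisons are filled for *Fn1*, *Thbs1* and *Tgm2*, and no gene is filled for stroke versus sham blood, where *Thbs1* was at -2.52.

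Stroke blood and sham blood were compared to see whether the same genes moved in circulating cells after stroke. None of the 6 genes was called by edgeR, with 2 of them at an unadjusted p below 0.05, and DESeq2 called 1 lower, *Thbs1*. Few genes were called at all: 1 of 12664 was called higher by edgeR, 0.00790% (*Serpinb10*, named after its value was seen), and 0% lower, while 1581 had an unadjusted p below 0.05. DESeq2 called 62 higher and 65 lower.

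*Thbs1* was the member that differed most. Sham blood held 488, 327 and 227 CPM and stroke blood 53.8, 76.5 and 51.8 CPM. All 3 stroke blood libraries were below all 3 sham libraries, as was the case for 9.03% of the genes tested. The mean was 347 ± 132 CPM in sham blood and 60.7 ± 13.7 CPM in stroke blood, a log2 fold change of -2.52 (SE 0.30, edgeR adjusted p = 0.0806), which missed the threshold. Left-out fits moved this p between 0.0117 and 0.609: *Thbs1* was called without sham replicate 1 (-2.19, edgeR adjusted p = 0.0117) and without sham replicate 3 (-2.76, edgeR adjusted p = 0.0291). It was also called without the filter on low counts (edgeR adjusted p = 8.05e-09) and by DESeq2 (adjusted p = 3.64e-15).

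Platelets store thrombospondin-1, and sorted blood cells can carry platelets, so the summed level of 12 platelet markers is given beside *Thbs1*. It was 22.5, 544 and 812 CPM in the sham libraries, 398, 487 and 409 CPM in stroke blood and 36.2, 58.4 and 79.9 CPM in the brain, with *Gp5* at 0 in all brain libraries. The brain sum was mostly *Pf4*, at 31.7, 53.2 and 74.0 CPM, beside 76.3, 86.8 and 104 CPM in stroke blood and 4.77, 81.2 and 138 CPM in sham blood. The sham library with the fewest platelet transcripts was the one with the most *Thbs1*, and the brain libraries were low in platelet transcripts and highest in *Thbs1*. Of the platelet markers tested, 11 of 12 were called lower in the brain than in stroke blood, and none was called between stroke and sham blood. The part of platelets in the blood levels of *Thbs1* was not tested.

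The other members differed from sham blood by less. *Fn1* was at 2680.4, 2747 and 3823 CPM in sham blood, which overlapped stroke blood (log2 fold change -0.27, SE 0.21, edgeR adjusted p = 0.605). For *Tgm2* sham blood held 35.3, 39.3 and 13.04 CPM, a wider spread than the stroke blood libraries (-0.50, SE 0.36, edgeR adjusted p = 0.577). *Emilin2* was at 1589.6, 1541 and 1937 CPM in sham blood (-0.49, SE 0.21, edgeR adjusted p = 0.39). *Ecm1* gave -0.44 and *Tgfbi* -0.06, and the sign of *Tgfbi* turned under another scaling (0.01). The median log2 fold change was -0.46 over the 6 genes and -0.03 over all genes tested.

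**Figure D3:**
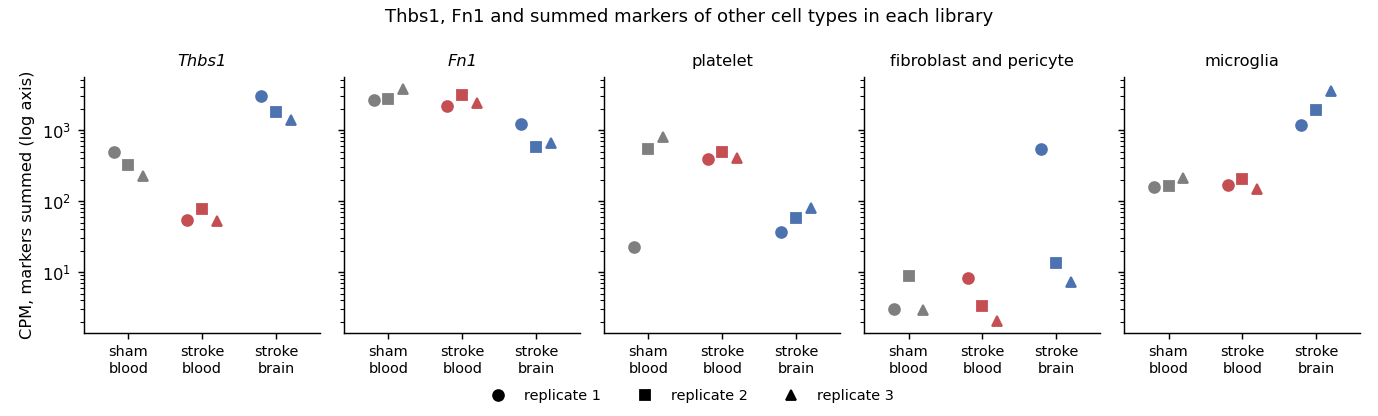
Level of *Thbs1* and *Fn1* and the summed level of markers of platelets, fibroblasts and pericytes, and microglia in each library (CPM, log axis shared by the panels), with the replicate number as the marker shape. Sham replicate 1 is low in platelet markers (22.5 CPM) and brain replicate 1 high in fibroblast and pericyte markers (540 CPM), and *Thbs1* is highest in replicate 1 of sham blood and of the brain but in replicate 2 of stroke blood.

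Against sham blood, the brain libraries gave the same calls as against stroke blood, with *Thbs1* and *Tgm2* higher and *Fn1* lower. The brain libraries are shared by both comparisons, so the second is not independent of the first. Here 2 of 6 genes were called higher, beside 9.75% of 13020 genes tested, and 1 of 6 lower, beside 3.67%. The median log2 fold change was 0.34 over the 6 genes and 0.01 over all genes tested.

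For *Thbs1* the log2 fold change was 2.59 against sham blood (SE 0.37, edgeR adjusted p = 0.00417), beside 5.12 against stroke blood. *Tgm2* gave 4.56 (SE 0.42, edgeR adjusted p = 0.000748), from a sham mean of 29.2 ± 14.2 CPM (SD, n = 3), and *Fn1* gave -1.87 (SE 0.31, edgeR adjusted p = 0.00691), from a sham mean of 3083 ± 642 CPM. These 3 genes were called in all 6 fits that left out a library and under all 8 other settings. *Emilin2* had an adjusted p of 0.0483 with edgeR but a log2 fold change of -0.53, within the threshold, and its groups did not overlap, as was the case for 41.3% of the genes tested here. *Tgfbi* (0.19, edgeR adjusted p = 0.65) and *Ecm1* (0.49, edgeR adjusted p = 0.257) were not called, and their groups overlapped.

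Fibroblasts and pericytes also make matrix proteins, so their markers are given beside the brain values. Summed over 9 markers of fibroblasts and pericytes, brain replicate 1 held 540 CPM, replicate 2 held 13.3 CPM and replicate 3 held 7.31 CPM, beside 2.05 to 8.95 CPM in blood. In replicate 1 the sum was mostly *Col1a1* (203 CPM), *Col3a1* (187 CPM) and *Col1a2* (134 CPM), all of them at 0 in replicate 3. These collagens did not pass the filter between brain and stroke blood. Of the 9 markers 2 were tested there and 0 were called by edgeR, which does not bear on the collagens. The same library had the highest brain level of *Fn1*, *Thbs1*, *Tgfbi* and *Emilin2*. Without it, *Thbs1* and *Tgm2* were still called higher and *Fn1* lower in both brain comparisons, and the part of these cells in the values of replicate 1 was not tested. Microglia markers summed to 1197, 1913 and 3569 CPM in the brain libraries and to between 146 and 211 CPM in blood, and all 9 were called higher in the brain than in stroke blood. The part of microglia in the brain levels of the 6 genes was not tested. Of 8 endothelial markers, *Cldn5* and *Tek* were at 0 in all 9 libraries, and of the 5 tested between brain and stroke blood 2 were called higher and 2 lower. The endothelial sum was 50.5 to 60.8 CPM in the brain and 45.0 to 86.9 CPM in blood. In the brain it was mostly *Flt1* (20.5 to 28.6 CPM) and *Pecam1* (19.6 to 25.4 CPM). *Kdr* was higher in the brain (3.72 to 8.10 CPM) than in stroke blood (0.0505 to 0.143 CPM) and sham blood (0.223 to 1.08 CPM). *Vwf* was lower in the brain (1.79 to 2.96 CPM) than in stroke blood (21.4 to 29.0 CPM), as was *Esam* (0.261 to 1.17 CPM against 4.79 to 6.65 CPM).

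The remaining marker lists are given for the same comparison. Neutrophil markers summed to 725 to 1233 CPM in the brain, 43.7 to 319 CPM in stroke blood and 247 to 1742 CPM in sham blood, and 5 of 6 tested were called higher in the brain than in stroke blood. Dendritic cell markers summed to 364 to 510.1 CPM in the brain and 56.5 to 131 CPM in blood, with 6 of 7 called higher. Border-associated macrophage markers were called higher in 5 of 6 tested and lower in 1, *F13a1*, which makes up most of their sum in each library. Astrocyte markers (7.49 to 21.7 CPM in the brain, under 1.79 CPM in blood) had 3 of 4 called higher, and the neuron sum stayed at or under 2.39 CPM with 0 of 1 called. T, NK and B cell markers had 1 of 9 called higher. All 6 erythroid markers were called lower, from 14197 to 19954 CPM in stroke blood to 3.77 to 13.7 CPM in the brain, and sham replicate 1 held 1261 CPM of them against 31280.2 and 34213 CPM in the other sham libraries. The part of these cells in the levels of the 6 genes was not tested.

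The make-up of the set changed with the tissue. All 6 genes together took between 0.477% and 0.933% of the counts of a library. In stroke blood *Fn1* held 46.2% of that sum, *Tgfbi* 28.8% and *Emilin2* 21.9%, while *Thbs1* held 1.10% and *Tgm2* 0.373%. In the brain *Thbs1* took 30.2%, *Tgm2* 10.1% and *Fn1* 12.1%, and *Tgfbi* held 27.9%. These shares count reads, so long genes weigh more in them.

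To order the genes by level, CPM were divided by the kilobases of annotated exon, which counts all isoforms and gives *Fn1* the longest model at 11.685 kb. *Tgfbi* led in all 3 groups, at 442 ± 173 CPM per kb in sham blood, 425 ± 17.9 in stroke blood and 499 ± 63.5 in the brain (SD, n = 3). In sham blood *Emilin2* (307 CPM per kb) and *Fn1* (264) followed and overlapped each other and *Tgfbi*. *Thbs1* (57.2) and *Ecm1* (49.9) overlapped next, and *Tgm2* (6.34) lay below them without overlap. In stroke blood *Emilin2* (219.5 CPM per kb) and *Fn1* (218.9) could not be separated, and *Ecm1* (37.0), *Thbs1* (10.0) and *Tgm2* (4.50) followed with no overlap between neighbours.

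In the brain *Thbs1* was next after *Tgfbi* at 341 ± 136 CPM per kb, followed by *Emilin2* at 209.8 ± 23.2, with *Thbs1* overlapping both *Tgfbi* and *Emilin2*. *Tgm2* came next at 148 ± 23.2 CPM per kb, above *Fn1* (71.1 ± 30.4) and *Ecm1* (69.5 ± 12.4) in every library, and *Fn1* and *Ecm1* overlapped.

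**Figure D4:**
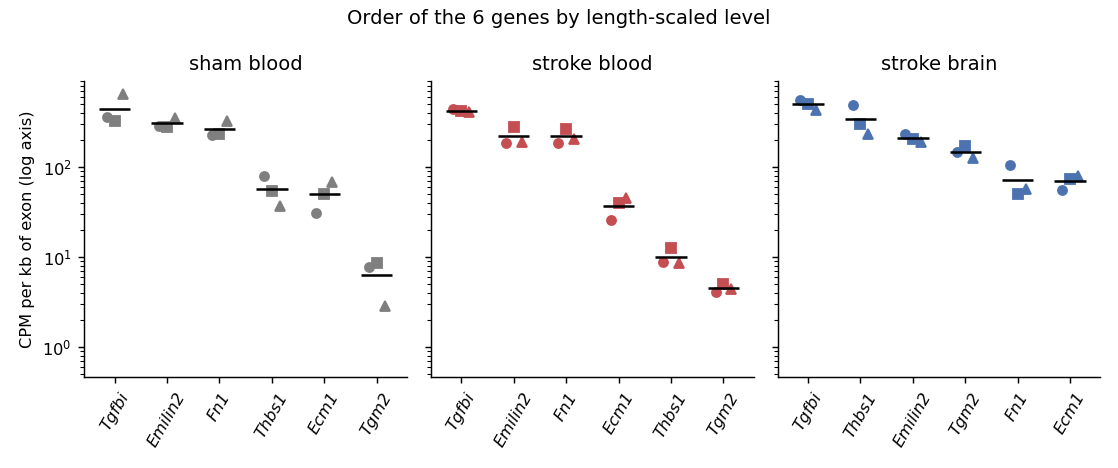
Length-scaled level of the 6 genes (CPM per kb of exon, log axis) in each library, ordered within each group by the mean (black line). *Tgfbi* is first in all 3 groups, *Thbs1* moves from rank 5 in stroke blood to rank 2 in the brain, and *Tgm2* from rank 6 to rank 4.

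The receptors through which cells hold matrix proteins were taken as a list of 24 genes, of which 20 were tested between brain and stroke blood. Of these, 8 were called higher and 3 lower, beside 13.1% and 7.86% of all genes tested, and the median log2 fold change was 0.53, beside 0.06 over all genes. *Itgb5*, the integrin beta 5 chain, rose from 32.0 ± 6.71 to 737 ± 238 CPM (log2 fold change 4.55, SE 0.29, edgeR adjusted p = 2e-05). *Sdc3*, a syndecan, rose from 106 ± 38.3 to 347 ± 14.6 CPM (1.74, edgeR adjusted p = 0.00073), and *Cd36*, a receptor of thrombospondin-1, from 43.0 ± 16.7 to 150.4 ± 14.3 CPM (1.83, edgeR adjusted p = 0.00163). Those called lower included *Itga4*, a chain of the fibronectin receptor VLA-4, which fell from 203 ± 32.3 to 91.9 ± 10.5 CPM (-1.12, edgeR adjusted p = 0.00157), and *Itga1*, a chain of a collagen receptor (-1.31, edgeR adjusted p = 0.0105). These 5 genes were called in every fit with 1 library left out, while the list as a whole went to 7 higher and 5 lower without brain replicate 1. *Cd47*, which also binds thrombospondin-1, was not called, at 804 ± 102 and 653 ± 31.0 CPM (-0.27, edgeR adjusted p = 0.196). The integrin chains *Itga5* (0.79, edgeR adjusted p = 0.0297) and *Itgb1* (0.56, edgeR adjusted p = 0.0878) on the list were higher in the brain but not called.

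Linker proteins tie integrins to the actin cytoskeleton, and 17 of 23 on the list were tested. Between brain and stroke blood 4 were called higher and 1 lower, beside the same 13.1% and 7.86% of all genes, with a median of 0.22. *Parvg*, the parvin of blood cells, rose from 46.3 ± 7.42 to 127 ± 13.4 CPM (log2 fold change 1.48, edgeR adjusted p = 0.000406), and *Parvb*, another parvin, fell from 12.8 ± 4.33 to 4.11 ± 1.08 CPM (-1.61, edgeR adjusted p = 0.0078). *Tns1*, a tensin, rose from 0.407 ± 0.117 to 5.92 ± 3.63 CPM (3.86) and *Tln2*, the second talin, from 0.404 ± 0.699 to 8.74 ± 3.51 CPM (4.42), a gene that DESeq2 did not call. Without brain replicate 1 the list had 3 genes called higher and 2 lower. *Tns1* and *Tln2* had at most 11 and 24 counts in a stroke blood library and passed the filter through their brain counts.

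Among 25 other crosslinking and collagen-modifying enzymes, 12 were tested, with 2 called higher, 1 lower and a median of 0.08, so their shares were close to the 13.1% and 7.86% of all genes. *F13a1*, which encodes the A chain of coagulation factor XIII and is a transglutaminase like *Tgm2*, moved opposite to it, from 2035 ± 616 to 957 ± 79.6 CPM (log2 fold change -1.06, SE 0.22, edgeR adjusted p = 0.00623). This call rested on the size of the change: it was -0.84 without stroke blood replicate 2 and -0.99 without brain replicate 2. With library size as the only scaling no enzyme was called lower. *Loxl3*, a lysyl oxidase, rose from 1.30 ± 0.806 to 4.77 ± 0.547 CPM (1.92, edgeR adjusted p = 0.0177), and the call was lost without stroke blood replicate 1 (1.60) or 2 (1.67). *Plod2*, a lysyl hydroxylase, was counted 88 times in brain replicate 1 but 11 and 20 times in replicates 2 and 3, and its call (4.38, edgeR adjusted p = 0.0294) was lost without brain replicate 1 (2.89), stroke blood replicate 2 (3.76) or stroke blood replicate 3 (3.84).

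Of 40 other matrix glycoproteins 15 were tested between brain and stroke blood, 7 of them called higher and 1 lower, beside 13.1% and 7.86% of all genes, with a median of 1.92. *Spp1*, which encodes osteopontin, rose from 1.21 ± 0.536 to 2196 ± 1113 CPM (log2 fold change 10.83, SE 0.54, edgeR adjusted p = 4.85e-06). Its brain libraries, at 3475, 1450 and 1663 CPM, overlapped those of *Thbs1*, at 2990, 1820 and 1398 CPM. Levels of different genes on this scale are also not corrected for length. *Sparc*, a collagen-binding matricellular protein, had 3, 9 and 0 counts in stroke blood and 4253, 5090 and 11677 in the brain (edgeR adjusted p = 2e-05), and *Efemp2*, a fibulin, rose by 1.92 on the log2 scale. *Mmrn1*, which encodes multimerin of platelets and endothelium, had no count in the brain and was at least 58.5-fold lower there than in stroke blood, measured against 3 counts in each brain library. The counts of 7 and 1 were the same without brain replicate 1. DESeq2 called 10 higher, and edgeR with no filter on low counts 16. *Sparc* passed the filter only through its brain counts, so the median and calls of this list were partly set by the filter.

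Collagens were mostly too low to test: 5 of 18 passed the filter, and edgeR called *Col27a1* alone, from 0.253 ± 0.191 to 3.32 ± 1.44 CPM (log2 fold change 3.74, edgeR adjusted p = 0.00358). Of 20 proteoglycan and hyaluronan genes 7 were tested, with *Tnfaip6*, a hyaluronan-binding protein, called higher (3.53, edgeR adjusted p = 0.00508) and *Vcan*, the proteoglycan versican, called lower (-1.05, edgeR adjusted p = 0.0112). The call of *Vcan* was lost without stroke blood replicate 3 (-0.78) or brain replicate 3 (-0.89), and with library size as the only scaling. DESeq2 called 6 collagens higher (*Col14a1*, *Col18a1*, *Col27a1*, *Col4a1*, *Col4a2* and *Col6a3*, named here after their calls were seen). The edgeR count moved to 9 of 11 tested without brain replicate 3. With no filter on low counts, which lets more of them be tested, it was 15. Without brain replicate 1, the library with the highest sum of fibroblast and pericyte markers, 1 of 5 tested was called higher. The medians were 2.22 for the collagens and 0.18 for the proteoglycan and hyaluronan genes. A gene low in blood passed the filter of a brain comparison only through its brain counts, so the collagen median and calls were partly set by the filter. The same holds for other genes low in blood, *Sparc*, *Plod2*, *Tns1* and *Tln2* among them, and for the medians and calls of their lists. Between stroke and sham blood 2 collagens were tested, *Col4a1* and *Col4a2*. *Sparc*, among the matrix glycoproteins, was not tested there either.

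**Figure D5:**
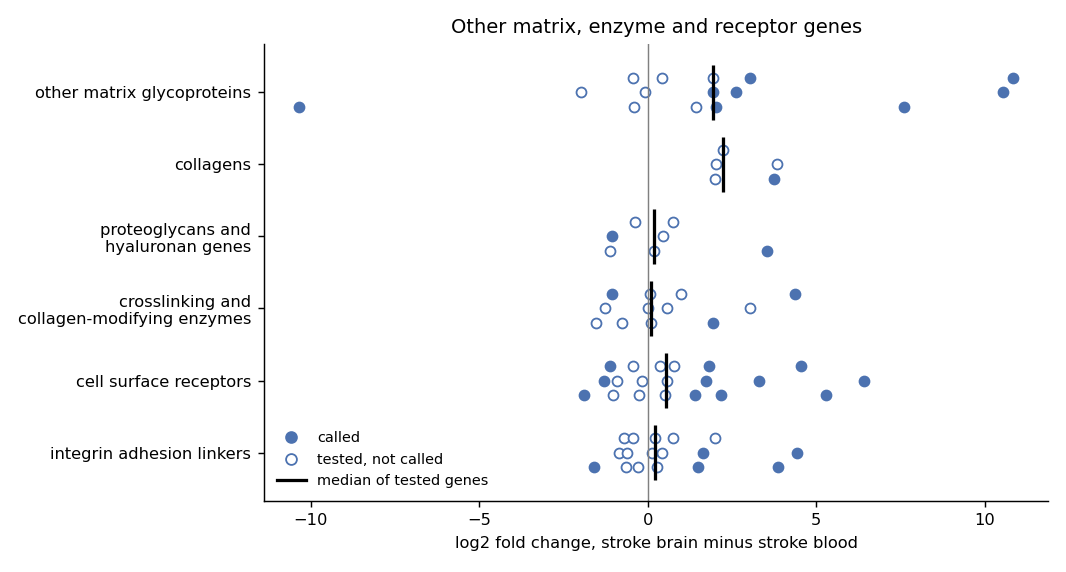
Log2 fold change between stroke brain and stroke blood of each tested gene in the 6 lists (1 point a gene, spread vertically for visibility), filled where called, with the median of each list as a black bar. The points furthest out are in the matrix glycoproteins, *Spp1* at 10.83 and *Sparc* at 10.53 on the right and *Mmrn1*, with no count in the brain, on the left.

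Exons of *Efemp2*, *Loxl3*, *Plod2*, *Plod3*, *F13a1*, *Itga4*, *Sdc3*, *Zyx*, *Col4a1* and *Col15a1* overlap another gene on the opposite strand, and those of *Spp1* and *Itga1* one on the same strand, so their counts are uncertain in the shared stretches. The partners of *Plod2*, *Sdc3* and *Col15a1* on the opposite strand had 0 counts in all libraries. *Loxl3*, with at most 115 counts in a brain library, shares 11.6% of its exon bases with *Htra2* (4111 counts in all libraries). *Efemp2*, with at most 180 counts in a brain library, shares 4.57% with *Mus81* (3408 counts in all libraries).

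Between stroke and sham blood, none of the 66 tested genes of these lists was called by edgeR or DESeq2, while 15 had an unadjusted edgeR p below 0.05. The medians ran from -0.68 for the matrix glycoproteins to 0.17 for the proteoglycan and hyaluronan genes. The most abundant tested gene of each list was *Emilin1* (log2 fold change -0.42), *Col4a1* (0.16), *Cd44* (0.34), *F13a1* (-0.64), *Itgb7* (-0.11) and *Zyx* (0.01), with edgeR adjusted p-values between 0.364 and 0.983.

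Between brain and sham blood, the matrix glycoproteins had 4 genes called higher and 0 lower of 14 tested, the collagens 2 and 0 of 5, the proteoglycan and hyaluronan genes 2 and 1 of 7, the enzymes 2 and 2 of 12, the receptors 8 and 1 of 20 and the linkers 2 and 0 of 17, beside 9.75% and 3.67% of all genes tested. Without brain replicate 1 the enzymes had 0 called higher and 2 lower and the linkers 2 and 3, and without sham replicate 1 the glycoproteins had 3 and 2. The shift of the enzymes was not particular to brain replicate 1. The enzymes also had 0 and 2 without brain replicate 2 or 3 or sham replicate 2 or 3. The glycoproteins had 2 and 0 without sham replicate 2 or 3. In the other left-out fits the linkers had 0 or 1 called lower and the glycoproteins 0. Of the 18 genes named by rule, 7 were called in all 6 fits that left out a library. They were *Spp1* (log2 fold change 9.27), *Sparc* (11.75), *Col27a1* (3.62), *Itgb5* (5.19) and *Cd36* (2.36), which were higher in the brain, and *F13a1* (-1.71) and *Plod3* (-1.03), a lysyl hydroxylase, which were lower. *F13a1* fell from 3154 ± 708 CPM in sham blood, and its 6 left-out values lay between -1.83 and -1.52.

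The remaining 11 calls against sham blood depended on single libraries. *Srgn*, the proteoglycan of secretory granules, was called (1.09) but not without brain replicate 1 (0.99), and *Itga1* (-1.54) not without sham replicate 3 (-1.37, edgeR adjusted p = 0.0508). *Vcan* (-2.02) was lost without brain replicate 2 (-2.11, edgeR adjusted p = 0.0546) or 3 (-1.88, edgeR adjusted p = 0.0658). *Tns1* (4.58) was lost without sham replicate 1 (4.12) or 3 (4.05), and *Tln2* (4.84) without sham replicate 2 (4.22) or brain replicate 2 (4.64) or 3 (4.67). Against 3 counts in each sham library, *Col15a1* was at least 8.98-fold higher (5.22-fold without brain replicate 3) and *Thbs2*, another thrombospondin, at least 49.5-fold higher (8.01-fold without brain replicate 1). *Col15a1* was lost without sham replicate 1 (4.58) or 2 (4.53) or brain replicate 3 (4.33). *Thbs2* was counted 420 times in brain replicate 1 but 15 and 42 times in replicates 2 and 3, and it was lost without brain replicate 3 (10.78) and without any 1 of the sham libraries (10.35 to 10.39). *Sdc3* (1.36) was called in 2 of the 6 fits, *Tnfaip6* (2.38) and *P4ha2* (2.76) in 1 and *Loxl3* (1.19) in 0, with values between 1.03 and 1.94, 1.57 and 2.78, 2.35 and 3.99, and 1.04 and 1.29.

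The genes whose pattern over the 9 libraries was most like that of each member were found by Pearson correlation of log2(CPM + 1) among genes with a mean of at least 5 CPM. The libraries fall into groups, so any gene with the same order of groups scores high, and the values are a description only. For *Tgm2* they were *Atf3* (0.995), *Cd34* (0.990) and *Tbc1d10a* (0.990), and for *Thbs1*, *Bend4* (0.991), *Cdc25a* (0.986) and *Metap2* (0.984). For *Fn1* they were *Mboat7* (0.986), *Mrtfa* (0.985) and *C3* (0.983). *Emilin2* was closest to *Aplp2* (0.983), *Mettl13* (0.956) and *Cep78* (0.951), and *Ecm1* to *Taok3* (0.953), *Sipa1* (0.950) and *Pla2g15* (0.948). *Tgfbi* had the weakest likeness of the 6 genes, with *Saal1* (0.941), *Ppm1m* (0.921) and *Ints2* (0.892). By Spearman correlation *Saal1* and *Aplp2* again ranked 1 for *Tgfbi* and *Emilin2*, while *Cdc25a* took rank 1 for *Thbs1* in place of *Bend4* and *Pla2g15* for *Ecm1* in place of *Taok3*, and *Mboat7* went to rank 206 for *Fn1*.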

How the data were processed

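RNA of sorted monocytes/macrophages was sequenced in 9 libraries, grouped as sham blood, stroke blood and stroke brain by their titles. The authors made cDNA with the SMART-Seq HT kit, aligned reads with HISAT2 on GRCm38 and assigned them to genes with HTSeq. Raw gene counts were deposited, not normalized, and versions, annotation release and strand setting are not given in the sources used here. Of 53801 identifiers, 53706 had a symbol in GENCODE M21 and 52105 the same coordinates (not *Emilin2*, whose coordinates are those of the count files). Sequences were read from GENCODE M21 transcripts of GRCm38.

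Total counts ranged from 18475118 to 22623578. No molecular identifiers were used, so a floor of 3 counts allows for counting error alone. Each comparison was fitted on its 2 groups with edgeR 4.0.16 (R 4.3.3), by its quasi-likelihood test with TMM scaling and filterByExpr, and adjusted over all genes tested. A standard error is the size of the log2 fold change over the square root of F. P-values measure the spread between mice in blood and between pools of 5 mice in the brain. DESeq2 1.42.0, other scalings and filters, a fit of all 9 libraries, the replicate number as a block, no fold threshold and each library left out were the alternatives. The fits were tested on simulated data. Tables and figures used Python 3.11.15, pandas 2.3.3, numpy 2.4.6 and matplotlib 3.10.9.

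Named genes were the 6 members; of each list the called genes with the highest mean CPM in that comparison, up to 3 higher and 2 lower, or the most abundant tested gene where none was called; and the 3 genes most like each member. Marker lists are described by their sums and counts, with the highest markers and any at 0 named. *Serpinb10*, *Kdr*, *Vwf*, *Esam*, *Cd47*, *Itga5* and *Itgb1* fall outside these rules. Members and lists were chosen with earlier results of these data known. The value of a single marker gene is not reported here.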

Additional observations from a re-analysis of the deposited data

How the results depend on the processing

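The calls of *Fn1*, *Thbs1* and *Tgm2* in both brain comparisons kept their direction and their side of the threshold under every alternative run. Scaling by library size alone moved the median log2 fold change of all genes from 0.06 to 0.22 between brain and stroke blood, and upper-quartile scaling moved it to -0.09. Between brain and sham blood library size alone moved it from 0.01 to 0.13. For *Emilin2* between brain and stroke blood the sign turned with library size only (0.12) and, with 1 library left out, the values ran from -0.18 to 0.14, among them 0.14 and 0.04. For *Tgfbi* between stroke and sham blood it turned with upper-quartile scaling (0.01) and the replicate block (0.01), and the left-out fits ran from -0.24 to 0.29. Both genes were uncalled throughout, and the cause was not tested. Between stroke and sham blood, DESeq2 called 62 genes higher and 65 lower, edgeR without a filter on low counts 59 and 101, and left-out fits 0 to 1 and 0 to 15, the last without sham replicate 1. DESeq2 and the fit without a filter each called 1 of the 6 genes lower, and left-out fits 0 to 1. With no fold threshold 1727 genes were called lower between brain and stroke blood and 1000 between brain and sham blood, 2 of the 6 genes among the latter, since fewer conditions apply. Between brain and sham blood, left-out fits called 277 (without sham replicate 3) to 669 (without brain replicate 1) genes lower, and 305 without brain replicate 2. The sources used here do not tie same-numbered libraries to shared mice, and their deviations from the group means correlated between -0.078 and 0.083, so the numbers were not taken to pair them. With the replicate block, 0 genes were called higher and 1 lower between stroke and sham blood, and the calls of the 6 genes were the same in all 3 comparisons. Among list counts, levels and other values of single genes, 731 values under an alternative kept their direction and side of the threshold or stayed within their spread, 88 moved and 9 crossed the threshold in the same direction, those of *Ecm1*, *Thbs1* and *Emilin2*.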
